A study of Mus musculus with 24 samples.

Results

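The genes described here are 10 genes of the integrated stress response and of serine and one-carbon metabolism: Atf4, Ddit3, Trib3, Chac1, Sesn2, Asns, Psat1, Phgdh, Shmt2 and Mthfd2. They were taken by name, with earlier results of these data known. Of the transcripts listed for each, the one with the most counts on average in the 12 epithelial libraries stands for the gene. All 10 had a row among the 14557 gene symbols of the table. RNA was sequenced from the epithelial fraction of mouse lung organoids, small structures grown in Matrigel from primary EpCAM+ lung cells of wild-type female C57BL6 mice together with CCL206 mouse lung fibroblasts, which are a single cell line and carried by every group. The gel held no fibers (control), 12000 nylon fibers or 30000 nylon fibers per well. After 7 days the cultures were digested and the EpCAM+ cells were collected on antibody-coated beads. Each group had 4 libraries, from separate isolations of 4 mice, and each mouse gave 1 library to every group. The labels used here give no age for the mice. The comparisons ask how these genes differed between cultures with and without fibers, and between the fiber numbers.

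In the integrated stress response, kinases that sense amino acid shortage, misfolded proteins, viral RNA or mitochondrial and heme stress phosphorylate the translation factor eIF2. General protein synthesis then falls, while the mRNA of the transcription factor ATF4 is translated more, so the Atf4 mRNA level is not a measure of ATF4 protein. ATF4 binds DNA with C/EBP-family partners at composite C/EBP-ATF response elements and raises genes of amino acid uptake and synthesis, tRNA charging and, under lasting stress, cell death. Among its known targets are the enzymes that make serine from a glycolytic intermediate and the mitochondrial enzymes that pass the carbon of serine to folate.

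The promoters of several members hold sequences that resemble the known element, and these are shown because ATF4 is known to act there. RefSeq windows (GRCm38.p6) from 250 bases before to 50 bases after the transcription start matched 10 of 10 members, in 11 windows. The letters TGATGNAA, the core of the composite element, were searched on both strands and were found in 3 members, Asns, Chac1 and Trib3. They occurred in 1304 of 32851 promoter windows (3.97%). The letters TGGTGCAAT, searched in the same way and chosen after the windows had been read, were found in 2 members, Trib3 and Psat1, and in 29 of 32851 windows (0.0883%). No match of the one overlapped a match of the other. Each sequence runs 5′ to 3′ along the gene's own strand, and the capitals mark the match. Positions count from the RefSeq start of the window, which can differ from the start of the transcript used for the levels, as for Trib3 and Asns.

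Asns, chr6:7693215-7693242, minus strand, match starting 23 bases before the start site: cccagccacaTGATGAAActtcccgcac
Chac1, chr2:119351039-119351066, plus strand, match on the opposite strand starting 193 bases before the start site: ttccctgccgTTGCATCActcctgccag
Trib3, chr2:152344029-152344056, minus strand, match on the opposite strand starting at base 15 of the transcript: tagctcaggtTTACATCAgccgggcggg
Trib3, chr2:152344075-152344103, minus strand, match starting 33 bases before the start site: gggtcacagaTGGTGCAATcccgggccgc
Psat1, chr19:15925177-15925205, minus strand, match starting 136 bases before the start site: cgcgggtggcTGGTGCAATcccctgctct

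A match describes letters only, and the absence of these letters from the windows of Atf4, Ddit3, Sesn2, Phgdh, Shmt2 and Mthfd2 says nothing about the factor.

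The libraries differed between the groups in depth and in cell type markers. Counts of the representative transcripts ran from 7204371 to 9743738 in the controls, from 6878550 to 10583357 with 12000 fibers and from 2799765 to 3723250 with 30000 fibers. Mitochondrial transcripts took 5.2% to 7.77%, 5.33% to 6.91% and 14.33% to 16.26% of the counts, respectively. Levels below are CPM, counts per 1000000 counts of the scaled total of representative transcripts. All 12 epithelial markers were detected, and their summed level ran from 8500 to 9950 CPM in the controls, from 9220 to 11600 CPM with 12000 fibers and from 7330 to 8020 CPM with 30000 fibers. Of these 12 markers, 2 rose and 6 fell with 12000 fibers (median log2 fold change -0.27), and 1 rose and 10 fell with 30000 fibers (median -0.72). The 17 fibroblast markers that passed the filter on low counts, of 20 listed, summed to 8200 to 12800, 14900 to 16400 and 13800 to 16800 CPM, and none of these 17 was at 0 in every library. Of the 17, 16 rose with 12000 fibers (median log2 fold change 1.07) and 16 with 30000 fibers (median 1.78). Epcam, the antigen of the sort, fell from 650 CPM in the controls to 484 and 239 CPM. Dcn, a matrix proteoglycan of fibroblasts, rose from 23.6 CPM to 65.6 and 230 CPM. Immune markers (3 of 6 passed the filter) summed to 72.5 to 177, 160 to 284 and 291 to 461 CPM. Endothelial markers (2 of 5) summed to at most 4.02 CPM. In bulk samples, fewer cells of a type and less RNA per cell cannot be told apart.

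With 12000 fibers, 8 of the 10 genes rose, none fell and 2 did not pass the test. Of all 13759 genes tested, 38.0% passed in that comparison, 18.7% higher and 19.3% lower. Because the 10 were chosen with earlier results known, such shares are given beside the counts for scale and test nothing. A gene passed at an adjusted p under 0.05 (edgeR quasi-likelihood test over the 12 libraries, Benjamini-Hochberg adjustment over all genes), and ± after a log2 fold change is the standard error. The median log2 fold change was 0.55 over the 10 genes and -0.003 over all genes. In 9 of the 10, all but Psat1, the 4 fiber libraries did not overlap the 4 control libraries, against 36.3% of all genes (17.6% higher and 18.7% lower). Of these 9, Shmt2 lay lower, without passing the test, and the others lay higher.

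With 30000 fibers, 7 of the 10 rose, 1 fell and 2 did not pass, where 65.6% of all genes passed, 32.2% higher and 33.4% lower. The median over the 10 was 0.68, against -0.026 over all genes. Trib3, Sesn2 and Psat1 overlapped the controls there. The others of the 10 did not, with Shmt2 lower and the rest higher. Groups that do not overlap were found for 58.1% of all genes in that comparison, 28.7% higher and 29.4% lower. Between the fiber numbers, 1 of the 10 was higher with 30000 fibers, 2 were lower and 7 did not pass. There, 55.4% of all genes passed, 28.3% higher and 27.1% lower. Of the 10, only Phgdh (higher), Trib3 and Sesn2 (both lower) did not overlap, against 52.3% of all genes, 26.7% higher and 25.6% lower. The 2 comparisons with the control share the control libraries, so their values are given side by side. Some calls that involve 30000 fibers differed between fits. Another scaling method on the same genes changed no call among the 10. A fit over all transcripts, described below, has other rows and its own scaling, and gave other values for the same representative transcripts. The part of the rows and of the scaling in this was not tested.

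**Figure D1:**
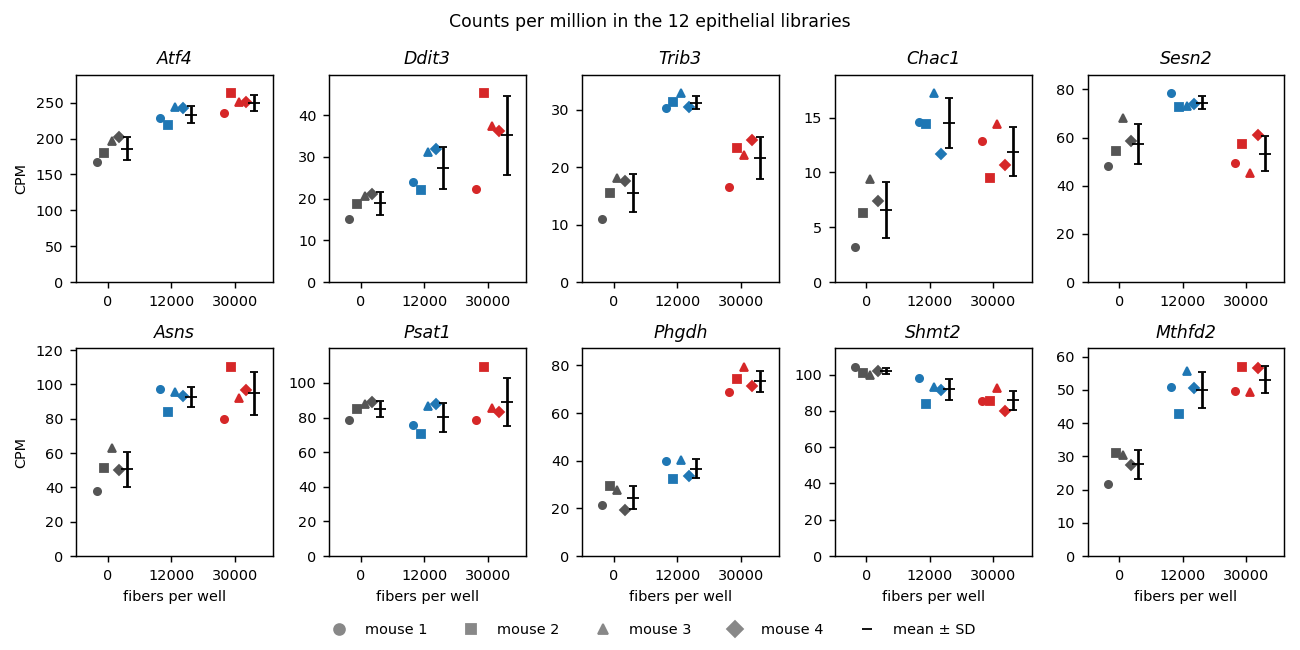
Level of each of the 10 genes in CPM (vertical axes, each starting at 0) by fibers per well (horizontal axes). Each symbol is a library, its shape marks the mouse, and bars give the mean ± SD of 4 libraries: Trib3 and Sesn2 are highest with 12000 fibers, and Phgdh is highest with 30000 fibers.

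Atf4, the transcription factor of the response, was read from a single-exon transcript model at GRCm38 chromosome 15, 80255523 to 80257541, annotated as a retained intron and ending at the same base as a protein-coding model. Its levels in mice 1 to 4 were 167, 180, 196 and 202 CPM in the controls, 229, 219, 244 and 242 CPM with 12000 fibers, and 236, 263, 251 and 251 CPM with 30000 fibers. Every fiber library lay above every control library, and the fiber groups overlapped each other. Atf4 rose 1.25-fold with 12000 fibers (log2 fold change 0.33 ± 0.07, adjusted p = 0.000723) and 1.35-fold with 30000 fibers (0.43 ± 0.07, adjusted p = 1.92e-05). The difference between the fiber numbers was 0.10 ± 0.07 (95% interval -0.05 to 0.26, adjusted p = 0.221).

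Ddit3 encodes CHOP, the C/EBP-family factor linked to cell death under lasting stress, and was read from a transcript of 4 exons at chromosome 10, 127290774 to 127296288. Its levels were 15.2, 18.7, 20.7 and 21.1 CPM in the controls, 23.9, 22.1, 31.1 and 32.0 CPM with 12000 fibers, and 22.3, 45.2, 37.4 and 36.1 CPM with 30000 fibers. The control libraries lay below all fiber libraries, and mouse 1 was the low library of the 30000-fiber group. Ddit3 rose 1.43-fold (0.52 ± 0.17, adjusted p = 0.0232) with 12000 fibers and 1.87-fold (0.91 ± 0.18, adjusted p = 0.000469) with 30000 fibers. The call with 12000 fibers was lost without control mouse 1 or 2 or without 12000-fiber mouse 3 or 4 (adjusted p = 0.0599, 0.0543, 0.0659 and 0.0686). It was also lost after thinning to equal depth, with a larger value (0.60, adjusted p = 0.0567), and with a trend on transcript length removed (0.47, adjusted p = 0.0606), and with that trend removed the 30000-fiber value was -0.07. The 30000-fiber level against the 12000-fiber level was 0.38 ± 0.18 (95% interval -0.02 to 0.79, adjusted p = 0.0819). That difference passed with mouse as a block (0.36, adjusted p = 0.0302), without 12000-fiber mouse 4 (adjusted p = 0.0494) and without 30000-fiber mouse 1 (adjusted p = 0.00658). With the length trend removed it passed in the opposite direction (-0.545, adjusted p = 0.0334).

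Trib3, a pseudokinase induced by ATF4 and CHOP that feeds back on ATF4, was read from a transcript of 4 exons at chromosome 2, 152337422 to 152344032. Its levels were 10.9, 15.5, 18.1 and 17.5 CPM in the controls, 30.3, 31.3, 32.8 and 30.4 CPM with 12000 fibers, and 16.5, 23.3, 22.1 and 24.7 CPM with 30000 fibers. The 12000-fiber libraries lay above all others, and the 30000-fiber group overlapped the controls through mouse 1. Trib3 rose 2.01-fold with 12000 fibers (1.01 ± 0.13, adjusted p = 4.26e-06) and 1.4-fold with 30000 fibers (0.49 ± 0.15, adjusted p = 0.00759). It was lower with 30000 than with 12000 fibers (-0.52 ± 0.14, adjusted p = 0.00437). The fit over all transcripts gave -0.18 (adjusted p = 0.2785) for that difference. The 30000-fiber call was lost when the transcripts of a gene were summed (0.34, adjusted p = 0.0864) and, with a larger value, after thinning to equal depth (0.57, adjusted p = 0.0861).

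Chac1, which breaks down glutathione and is induced late in the response, had the lowest level per kilobase of the 10 in every group and was read from a transcript of 3 exons at chromosome 2, 119351229 to 119354381. Its levels were 3.24, 6.32, 9.38 and 7.39 CPM in the controls, 14.6, 14.4, 17.2 and 11.7 CPM with 12000 fibers, and 12.9, 9.52, 14.4 and 10.7 CPM with 30000 fibers. All fiber libraries lay above all control libraries, by a small margin between control mouse 3 and 30000-fiber mouse 2. Chac1 rose 2.2-fold with 12000 fibers (1.14 ± 0.21, adjusted p = 0.000454) and 1.82-fold with 30000 fibers (0.87 ± 0.26, adjusted p = 0.00677). The fiber groups differed by -0.27 ± 0.24 (95% interval -0.81 to 0.26, adjusted p = 0.339). With the length trend removed, the 30000-fiber call was lost (0.61, adjusted p = 0.0552).

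Sesn2, a stress-induced leucine sensor that restrains mTORC1, was read from a transcript of 10 exons at chromosome 4, 132492032 to 132510501. Its levels were 48.2, 54.6, 68.1 and 58.5 CPM in the controls, 78.3, 72.5, 73.1 and 74.0 CPM with 12000 fibers, and 49.4, 57.5, 45.3 and 61.1 CPM with 30000 fibers. The 12000-fiber libraries stood above the others, and the 30000-fiber libraries overlapped the controls, with mouse 3 below the lowest control. Sesn2 rose 1.3-fold with 12000 fibers (0.38 ± 0.09, adjusted p = 0.00299). With 30000 fibers its difference from the controls was -0.10 ± 0.11 (95% interval -0.34 to 0.13, adjusted p = 0.395), and it was lower than with 12000 fibers (-0.48 ± 0.10, adjusted p = 0.000567). In the fit over all transcripts, these values were 0.23 (adjusted p = 0.0437) and -0.14 (adjusted p = 0.224).

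Asns, which makes asparagine from aspartate and glutamine, was read from a transcript of 12 exons at chromosome 6, 7675169 to 7692871. Its levels were 38.1, 51.2, 62.9 and 50.4 CPM in the controls, 97.2, 84.2, 95.8 and 93.5 CPM with 12000 fibers, and 79.9, 110.0, 92.4 and 96.9 CPM with 30000 fibers. Both fiber groups lay above the controls and overlapped each other. Asns rose 1.83-fold with 12000 fibers (0.88 ± 0.12, adjusted p = 3.87e-05) and 1.88-fold with 30000 fibers (0.91 ± 0.13, adjusted p = 1.38e-05). The difference between the fiber numbers was 0.04 ± 0.12 (95% interval -0.24 to 0.31, adjusted p = 0.828).

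Of the serine pathway, Phgdh encodes the enzyme that opens the route from glycolysis to serine, and was read from a transcript of 12 exons at chromosome 3, 98313170 to 98339990. Its levels were 21.6, 29.2, 27.9 and 19.4 CPM in the controls, 39.8, 32.5, 40.3 and 33.8 CPM with 12000 fibers, and 69.0, 74.1, 79.2 and 71.2 CPM with 30000 fibers. The 3 groups did not overlap. Phgdh rose 1.5-fold with 12000 fibers (0.58 ± 0.11, adjusted p = 0.000523) and 3.0-fold with 30000 fibers (1.58 ± 0.12, adjusted p = 9.22e-10). In the fit over genes, it was the 1 member higher with 30000 than with 12000 fibers (1.00 ± 0.12, adjusted p = 5.50e-07). In the fit over all transcripts, Atf4 (0.44), Ddit3 (0.73), Asns (0.38), Psat1 (0.495), Shmt2 (0.25) and Mthfd2 (0.43) also passed as higher. The 12000-fiber call was lost when all libraries were thinned to equal depth (0.59, adjusted p = 0.169).

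Psat1, the aminotransferase of the next step, was read from a transcript of 9 exons at chromosome 19, 15904678 to 15925059. Its levels were 78.6, 84.7, 87.6 and 88.8 CPM in the controls, 75.8, 70.3, 86.5 and 87.9 CPM with 12000 fibers, and 78.4, 109, 85.4 and 83.2 CPM with 30000 fibers. All 3 groups overlapped, and the highest library was mouse 2 with 30000 fibers. The differences from the controls were -0.09 ± 0.09 (95% interval -0.28 to 0.11, adjusted p = 0.477) and 0.07 ± 0.09 (95% interval -0.15 to 0.28, adjusted p = 0.545). Between the fiber numbers the difference was 0.15 ± 0.09 (95% interval -0.06 to 0.37, adjusted p = 0.179). For the same transcript, the fit over all transcripts gave 0.405 (adjusted p = 0.000303) with 30000 fibers, which passed as higher. Between the fiber numbers it gave 0.495 (adjusted p = 3.546e-05). With 12000 fibers Psat1 was lower than the control in 4 of 4 mice, without passing.

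Shmt2, the mitochondrial enzyme that turns serine into glycine and hands its carbon to folate, was read from a transcript of 12 exons at chromosome 10, 127517123 to 127522386. Its levels were 104, 101, 100 and 102 CPM in the controls, 98.4, 83.8, 93.3 and 91.6 CPM with 12000 fibers, and 85.4, 85.4, 92.7 and 80.2 CPM with 30000 fibers. The control libraries were close together and above every fiber library. Its difference with 12000 fibers was -0.15 ± 0.06 (adjusted p = 0.0648, lower in 4 of 4 mice), which passed without 12000-fiber mouse 1 (adjusted p = 0.0426). With 30000 fibers Shmt2 fell to 0.844 of the control level (-0.24 ± 0.07, adjusted p = 0.00346), the 1 member that fell in the fit over genes. Between the fiber numbers the difference was -0.10 ± 0.07 (adjusted p = 0.245). For the same transcript, the fit over all transcripts gave 0.09 (adjusted p = 0.26) with 30000 fibers. It gave 0.25 (adjusted p = 0.00509) between the fiber numbers.

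Mthfd2, which carries the folate-bound carbon onward in mitochondria, was read from a transcript of 8 exons at chromosome 6, 83305691 to 83317606. Its levels were 21.6, 30.9, 30.5 and 27.3 CPM in the controls, 50.8, 42.8, 55.6 and 50.6 CPM with 12000 fibers, and 49.8, 56.8, 49.5 and 56.5 CPM with 30000 fibers. Both fiber groups lay above the controls and overlapped each other. Mthfd2 rose 1.81-fold with 12000 fibers (0.86 ± 0.10, adjusted p = 2.64e-06) and 1.92-fold with 30000 fibers (0.94 ± 0.11, adjusted p = 4.75e-07). The fiber groups differed by 0.09 ± 0.11 (95% interval -0.16 to 0.33, adjusted p = 0.512).

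**Figure D2:**
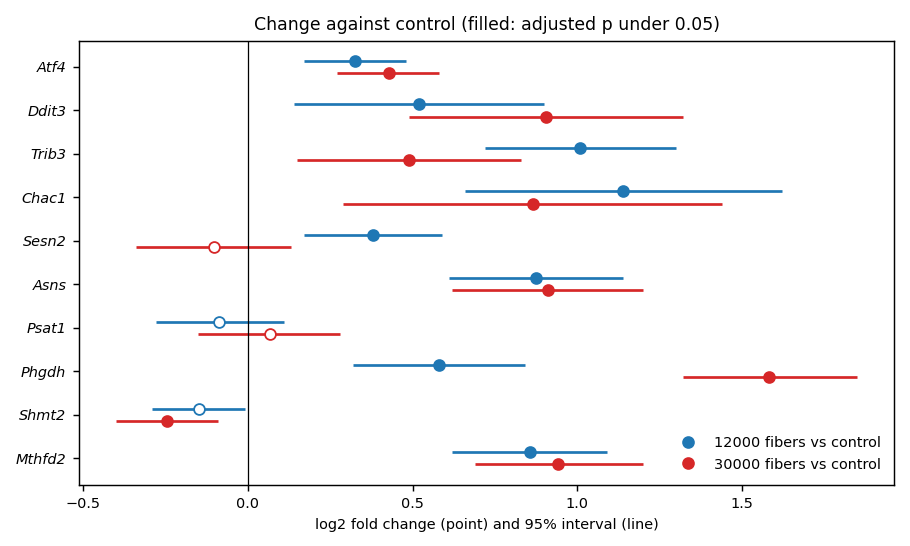
Log2 fold change of each gene (horizontal axis) with 12000 and with 30000 fibers against the control, with 95% intervals from 9 residual degrees of freedom. Phgdh lies at 0.58 with 12000 and at 1.58 with 30000 fibers, and filled points passed at an adjusted p under 0.05.

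The mean level of the fibroblast markers rose over the 3 groups, and the 10 genes did not all rise with it. Shmt2 fell, and Trib3 and Sesn2 were highest with 12000 fibers. The mean log2 CPM of the 17 fibroblast markers was 4.24, 5.0, 5.65 and 5.13 in control mice 1 to 4, 6.21, 5.97, 6.2 and 6.02 with 12000 fibers, and 6.79, 7.03, 6.93 and 6.77 with 30000 fibers. The 3 groups did not overlap on this level, so it and the fiber number cannot be fully told apart. Within the controls, 1 of the 10 genes lay above its control mean in mouse 1 (lowest fibroblast level, 4.24) and 9 in mouse 3 (highest, 5.65). The numbers were 3 in mouse 2 (5.0) and 7 in mouse 4 (5.13). The share over all genes was not counted for such numbers, and each describes a single library. The fiber groups spanned a narrower range of that level, and mice with nearly equal levels differed in these numbers. With 12000 fibers, 6 of 10 lay above their group mean in mouse 1 (fibroblast level 6.21), 1 in mouse 2 (5.97), 9 in mouse 3 (6.2) and 5 in mouse 4 (6.02). With 30000 fibers, the numbers were 1 in mouse 1 (6.79), 8 in mouse 2 (7.03), 6 in mouse 3 (6.93) and 6 in mouse 4 (6.77). With that level as a covariate, 0 of the 10 genes passed with 12000 fibers, where 6.48% of all genes passed, and 8 of 10 stayed positive with a median of 0.1. Mthfd2 (0.45, adjusted p = 0.0995), Trib3 (0.47, adjusted p = 0.171) and Asns (0.31, adjusted p = 0.178) had the highest values.

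With 30000 fibers and the same covariate, 24.5% of all genes passed, among them 2 of the 10. Phgdh stayed higher (1.07), and Sesn2 became lower (-0.72, adjusted p = 0.0124). Atf4 stood at 0.07 and Ddit3 at 0.15, and the values of Trib3 (-0.45), Chac1 (-0.97), Asns (-0.07) and Psat1 (-0.25) were negative. Between the fiber numbers, where 45.4% of all genes passed, Phgdh was higher and Trib3, Chac1, Sesn2 and Asns were lower in that fit. Whether fibroblast RNA takes part in the values without the covariate was not tested beyond these fits.

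**Figure D3:**
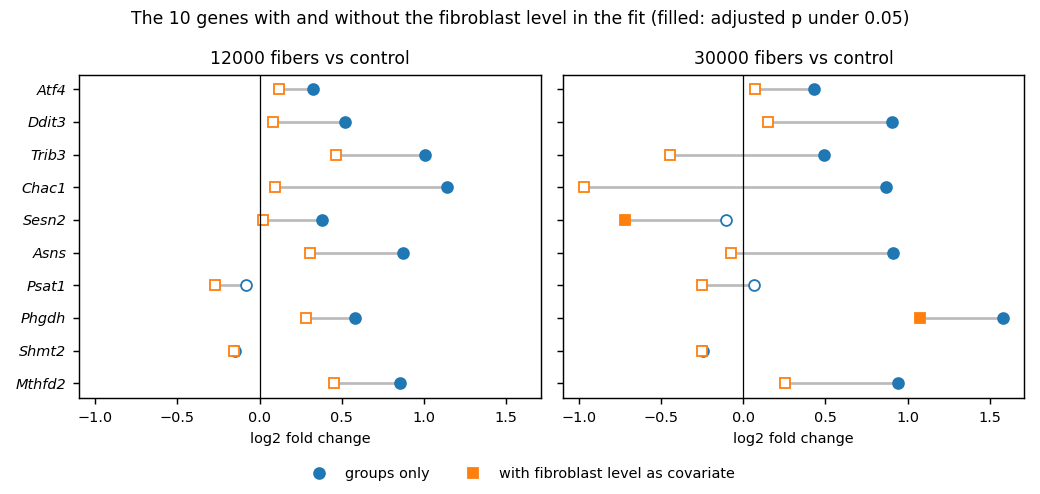
Log2 fold change of the 10 genes against the control without and with the mean fibroblast marker level in the fit. Filled symbols passed at an adjusted p under 0.05; with the covariate none passed with 12000 fibers, and Phgdh and Sesn2 passed with 30000 fibers.

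The table listed 41 transcripts of the 10 genes, and these did not move together with 30000 fibers. Annotated transcripts of a gene share exons, and the same reads appear in several of them: the 2 highest Asns transcripts had counts in a ratio of 1.0 and those of Shmt2 of 0.999. In a fit over 67490 transcripts, which has its own scaling, 28 other transcripts of 8 genes ended more than 200 bases upstream of the 3′ end of the representative. Against their representative, these differed by a median of 0.02 with 12000 fibers (-0.42 to 0.21, 12 of 28 below it). With 30000 fibers the median was -1.12 (-2.31 to 0.28, 25 of 28 below). The 3 others that ended within 200 bases differed by a median of 0.0 in both comparisons.

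Of all 67490 transcripts, 14.8% rose and 14.8% fell with 12000 fibers, and 30.2% rose and 33.3% fell with 30000 fibers. With 12000 fibers all 4 Phgdh transcripts rose, by 0.53 to 0.62. With 30000 fibers the representative of Phgdh rose by 1.92 in the transcript fit, while the other 3 lay between 0.06 and 0.46 and did not pass. For Asns, 7 of 7 transcripts rose with 12000 fibers, and 3 rose and 3 fell with 30000 fibers. For Mthfd2, 6 of 7 rose with 12000 fibers and 3 of 7 with 30000 fibers. For Atf4, 3 of 3 rose with 12000 fibers, and with 30000 fibers 2 rose and the one ending 782 bases upstream fell by 0.88. The 30000-fiber libraries also had the lowest depth and the highest mitochondrial share, and the part of RNA quality in these values was not tested.

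**Figure D4:**
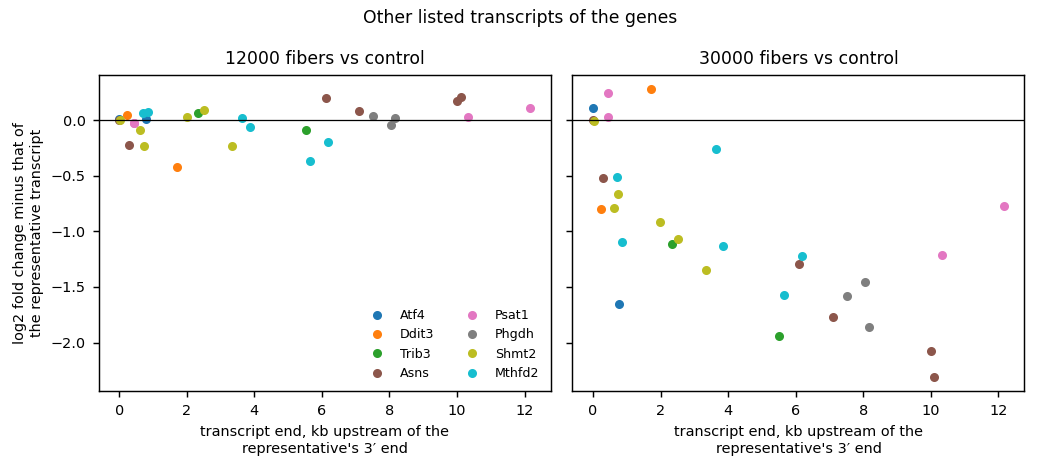
Difference in log2 fold change between each other transcript and the representative of its gene (vertical axis) by how far upstream of the representative's 3′ end it stops, in kilobases (horizontal axis). With 12000 fibers the points lie around 0, and with 30000 fibers 25 of the 28 that end more than 200 bases upstream lie below 0.

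Per kilobase of transcript, Atf4 had the highest level of the 10 in every group: 92.2 ± 7.88 (SD, n = 4) CPM per kb in the controls, 116 ± 5.88 with 12000 fibers and 124 ± 5.54 with 30000 fibers. In the controls Shmt2 (45.5) and Psat1 (32.5) came next, followed by Asns (25.1), Ddit3 (21.3), Sesn2 (16.5), Mthfd2 (13.2), Phgdh (13.0), Trib3 (7.65) and Chac1 (4.02 CPM per kb). Neighbours in that order overlapped from Psat1 down to Phgdh and between Trib3 and Chac1. With 12000 fibers the order after Atf4 was Asns (46.0), Shmt2 (41.0), Ddit3 (30.7), Psat1 (30.6), Mthfd2 (24.0), Sesn2 (21.4), Phgdh (19.3), Trib3 (15.4) and Chac1 (8.83 CPM per kb). There, Asns and Shmt2, Ddit3 and Psat1, and the run from Mthfd2 to Phgdh overlapped. With 30000 fibers Asns (47.1), Ddit3 (39.6), Phgdh (38.7), Shmt2 (38.4) and Psat1 (34.0 CPM per kb) overlapped from neighbour to neighbour. Mthfd2 (25.5), Sesn2 (15.3), Trib3 (10.7) and Chac1 (7.26 CPM per kb) followed, of which only Trib3 and Chac1 overlapped.

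Genes that act upstream of ATF4 and other parts of the pathway were counted from lists, also chosen with earlier results of these data known. With the fibroblast level in the fit, Atf5 (0.49), Stc2 (-0.96) and Slc7a5 (-0.74) still passed with 12000 fibers. Those that did not pass there ranged from values close to the fit without it, such as Eif2ak3 (0.34 against 0.38), to Eif2ak4 (0.17 against 0.39) and Aldh1l2 (0.23 against 1.06). Among the genes with the 3 smallest p-values of each list, the others that did not pass were as follows. Slc7a1 (0.42), Aars (0.41), Eif4ebp1 (0.36), Slc1a4 (0.35), Sars (0.34), Iars (0.33), Htra2 (0.23), Hspa9 (0.22), Hspd1 (0.14) and Aldh18a1 (0.10) had positive values. Xbp1 (-0.215), Pdia6 (-0.25), Oma1 (-0.27), Sel1l (-0.28) and Shmt1 (-0.69) had negative values. With 30000 fibers in that fit, Eif2b1 kept its size (0.76) at an adjusted p of 0.0565, Stc2 stood at -1.04 (adjusted p = 0.0508) and Slc1a4 at 0.075 (adjusted p = 0.832). Slc7a3 (1.55), Hspd1 (0.35), Iars (0.22) and Eif2ak2 (-0.22) lost their calls there too. Oma1 with 12000 fibers also lost its call after thinning, with a value of -0.48.

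Of 15 genes for the eIF2 kinases, their phosphatase subunits, eIF2B and the mitochondrial relay, 4 rose, 2 fell and 9 did not pass with 12000 fibers (median 0.02), where 18.7% of all genes rose and 19.3% fell. Eif2ak3, the kinase of endoplasmic reticulum stress known as PERK, rose by 0.38 ± 0.06, and Eif2ak4, the amino acid sensor GCN2, by 0.39 ± 0.08. Oma1, a protease of the mitochondrial relay, fell by 0.45 ± 0.12. With 30000 fibers 2 rose, 4 fell and 9 did not pass (median 0.04, mean -0.03), where 32.2% of all genes rose and 33.4% fell. There, Eif2b5 fell by 0.80 ± 0.08 and Eif2b1 rose by 0.76 ± 0.11, both subunits of the exchange factor for eIF2.

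Other partners and known targets of ATF4 moved in both directions. Of 16 tested, 7 rose, 3 fell and 6 did not pass with 12000 fibers (median 0.14), and 3 rose, 6 fell and 7 did not pass with 30000 fibers (median -0.12). Over all genes, 18.7% rose and 19.3% fell with 12000 fibers, and 32.2% rose and 33.4% fell with 30000 fibers. Atf5, a related factor that responds to mitochondrial stress, stood at 44.5 CPM in the controls, 84.1 CPM with 12000 fibers and 44.5 CPM with 30000 fibers. It rose by 0.92 ± 0.10 with 12000 fibers and was lower with 30000 than with 12000 fibers by the same size (-0.92 ± 0.11). Eif4ebp1, an inhibitor of cap-dependent translation, rose by 0.56 ± 0.07 and 1.36 ± 0.07. Stc2, a secreted glycoprotein, fell (-1.55 ± 0.19 and -2.03 ± 0.24), and Ddit4, an inhibitor of mTORC1, fell by 1.38 ± 0.08 with 30000 fibers.

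Of 9 amino acid transporters tested, 4 rose, 2 fell and 3 did not pass with 12000 fibers (median 0.22), and 3 rose, 3 fell and 3 did not pass with 30000 fibers (median -0.02, mean 0.01). The latter is close to the shares over all genes (32.2% higher and 33.4% lower), and with 12000 fibers those were 18.7% and 19.3%. Slc7a5, the light chain of a leucine carrier, fell (-0.81 ± 0.09 and -1.47 ± 0.10). Slc1a4, which carries neutral amino acids including serine, rose by 0.59 ± 0.08 and 0.49 ± 0.09. Slc7a1, a carrier of cationic amino acids, rose by 0.53 ± 0.07 with 12000 fibers and was lower with 30000 than with 12000 fibers (-0.55 ± 0.08).

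Cytosolic aminoacyl-tRNA synthetases, which charge tRNAs, mostly rose with 12000 fibers. Of 18, 12 rose, none fell and 6 did not pass (median 0.27), where 18.7% of all genes rose and 19.3% fell. Aars rose by 0.57 ± 0.08, Sars by 0.56 ± 0.07 and Iars by 0.51 ± 0.06. With 30000 fibers 8 rose, 5 fell and 5 did not pass (median 0.07), where 32.2% of all genes rose and 33.4% fell. Kars rose by 0.60 ± 0.06 and Vars fell by 0.96 ± 0.07. Between the fiber numbers 3 were higher and 10 lower with 30000 fibers (median -0.26), where 28.3% and 27.1% of all genes were, and Sars was among the lower (-0.75 ± 0.07).

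Of 20 other genes of serine, glycine, proline and one-carbon metabolism, 7 rose, 2 fell and 11 did not pass with 12000 fibers (median 0.20), and 11 rose, 4 fell and 5 did not pass with 30000 fibers (median 0.36). Over all genes, 38.0% passed with 12000 fibers (18.7% higher) and 65.6% with 30000 fibers (32.2% higher). Psph, the phosphatase that completes serine synthesis after Phgdh and Psat1, stood at 11.4 ± 0.901 CPM in the controls and 30.2 ± 2.05 CPM with 30000 fibers (SD, n = 4), a log2 fold change of 1.41 ± 0.12. Sfxn1, a mitochondrial serine carrier, rose by 1.13 ± 0.08 with 30000 fibers. Aldh1l2, a mitochondrial folate enzyme, rose by 1.06 ± 0.17 with 12000 fibers, and Shmt1, the cytosolic counterpart of Shmt2, fell by 0.95 ± 0.14.

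Of 21 folding genes of the endoplasmic reticulum, which the ATF6 and XBP1 branches are known to raise, 1 rose, 9 fell and 11 did not pass with 12000 fibers (median -0.11), where 18.7% of all genes rose and 19.3% fell. With 30000 fibers 4 rose, 10 fell and 7 did not pass (median -0.15), where 32.2% of all genes rose and 33.4% fell. Xbp1 itself fell by 0.42 ± 0.07 with 12000 fibers. With 30000 fibers Sdf2l1 fell by 1.56 ± 0.16, while Dnajb9, a chaperone of the same compartment, rose by 1.17 ± 0.10. Of 11 genes of mitochondrial protein quality control, 4 rose, none fell and 7 did not pass with 12000 fibers (median 0.17), where 38.0% of all genes passed. The chaperone Hspa9 was among those that rose (0.40 ± 0.07). With 30000 fibers 4 rose, 3 fell and 4 did not pass (median -0.03, mean 0.47), where 65.6% of all genes passed. The co-chaperonin Hspe1 rose by 3.77 ± 0.14.

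**Figure D5:**
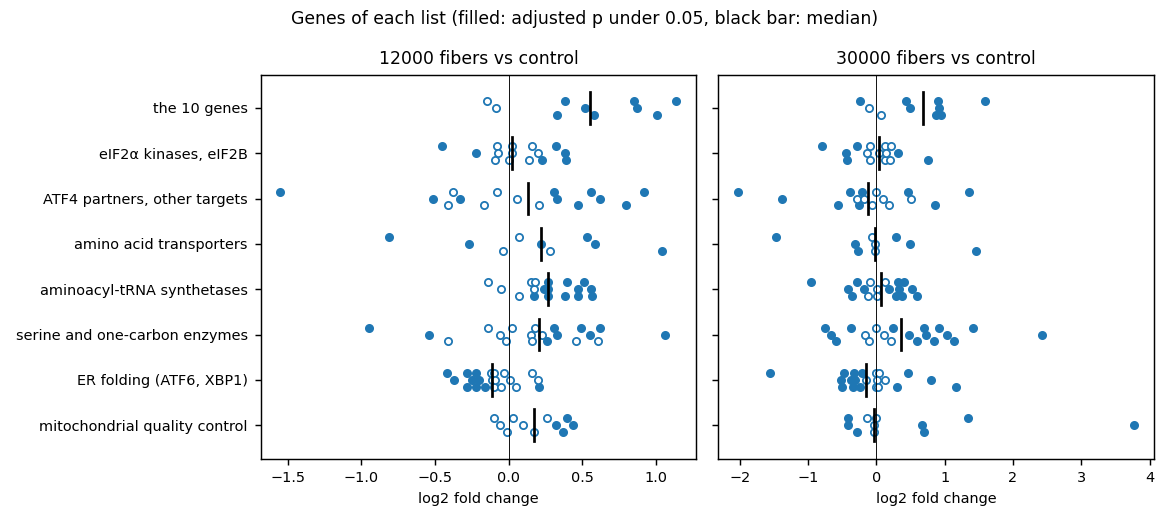
Log2 fold change of every tested gene (points) among the 10 genes (top) and in the 7 gene lists below them, against the control, with each median as a black bar. Filled points passed at an adjusted p under 0.05; the medians of the 7 lists run from -0.11 to 0.27 with 12000 fibers and from -0.15 to 0.36 with 30000 fibers.

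The 3 genes whose log2 CPM followed Atf4 most closely over the 12 libraries were Zfp862-ps (Pearson r = 0.975), Frmd4a (0.974) and Morn4 (0.971). Over the 8 control and 12000-fiber libraries their r was 0.963, 0.959 and 0.989. These are descriptions over libraries that share group and depth.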

How the data were processed

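RNA from 12 epithelial libraries of 24 in the series was analysed. The deposited values were raw counts per Ensembl transcript. The authors' tools, from the submitters' processing notes, were HISAT2 2.1.0, cutadapt 1.12, FastQC and bcl2fastq, and the build was mm10. How reads were counted, with which annotation and strand setting, and whether barcodes were used is not stated there. The lowest transcript total was 60. The 12 fibroblast columns were not used, because their entries do not line up with the identifiers (Spearman rho 0.0467 between row means, 36733 rows without an identifier).

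The 71081 transcripts covered 14557 symbols, and 1 transcript, that with the most counts on average, stood for each. All 12 libraries entered 1 fit with edgeR 4.0.16 (R 4.3.3): filterByExpr, TMM scaling and the robust quasi-likelihood test, with 9 residual degrees of freedom, 13759 genes tested and Benjamini-Hochberg adjustment at 0.05. Standard errors were derived from the F statistic. The fit was tested on simulated data. Coordinates and lengths came from GENCODE M21. Depth per library is given in the report, and of the 10 genes Chac1 had the largest standard errors.

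Library numbers mark the mouse per the labels, so they pair the libraries: deviations from group means correlated by -0.019 to 0.156 within a mouse (12 pairs) and by -0.184 to 0.124 between mice (36 pairs). No libraries were identical. Alternatives were DESeq2 1.42.0, other scaling and filters, summed transcripts, thinning, a length trend, a fibroblast covariate, mouse as a block and leaving out each library. The members and lists were chosen with earlier results of these data known. Named were all 10 members, the list genes with the 3 smallest p-values among those passing in a comparison (a selection of these is printed), Epcam, Dcn, Col1a1 and the 3 genes most like Atf4.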

Additional observations from a re-analysis of the deposited data

How the results depend on the processing

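Among the 10 genes, DESeq2, RLE scaling in place of TMM, no low-count filter and fits of 2 groups alone changed no call in any comparison. Mouse as a block changed 1, Ddit3 between the fiber numbers. The fit over all transcripts, with its own scaling, did change calls of the representatives. Between the fiber numbers, Atf4 (0.44, adjusted p = 4.88e-06), Mthfd2 (0.43, adjusted p = 0.000958) and Asns (0.38, adjusted p = 0.0104) were among those that passed there. Trib3 (-0.18) and Sesn2 (-0.14) did not pass. With 30000 fibers against the control, Psat1 passed as higher in that fit (0.405, adjusted p = 0.000303). Genes changed with 12000 fibers numbered 2842 after thinning and 892 with the fibroblast covariate, against 5231, and with 30000 fibers 3377 with that covariate, against 9026. With the covariate, 0 members were higher with 12000 fibers and 1 with 30000 fibers, and 4 were lower between the fiber numbers, as were 4 with the length trend removed. Members higher between the fiber numbers were 2 with the block and 3 with summed transcripts. Leaving out 1 library gave 0 to 1 members lower with 12000 fibers (1 without mouse 1 of that group) and 1 to 2 higher between the fiber numbers (2 without 12000-fiber mouse 4 or 30000-fiber mouse 1).

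Directions reversed as follows, on the log2 scale, and the cause was not tested. With the covariate: Col1a1 -0.138 (12000 fibers) and -0.155 (30000 fibers), Trib3 -0.448, Chac1 -0.972, Asns -0.073 and Psat1 -0.254 (30000 fibers), and, between the fiber numbers, Atf4 -0.049, Asns -0.382, Mthfd2 -0.201 and Col1a1 -0.017. With the length trend removed: Ddit3 -0.072 (30000 fibers), and, between the fiber numbers, Ddit3 -0.545 (adjusted p = 0.0334), Atf4 -0.036, Asns -0.102 and Mthfd2 -0.033. With summed transcripts: Sesn2 0.034 (30000 fibers), Asns -0.196 and Mthfd2 -0.148 (between the fiber numbers). After thinning: Sesn2 0.037 (30000 fibers), Asns -0.044 and Mthfd2 -0.011 (between the fiber numbers). In the fit over all transcripts, for the representatives with 30000 fibers: Sesn2 0.234 (adjusted p = 0.0437) and Shmt2 0.095. Between the fiber numbers in that fit: Chac1 0.07 and Shmt2 0.248 (adjusted p = 0.00509). Leaving out 1 library, Psat1 with 30000 fibers ran from -0.042 (without 30000-fiber mouse 2) to 0.121, and Asns between the fiber numbers from -0.045 (without the same library) to 0.104. Trib3 with 30000 fibers lost its call with summed transcripts (0.343) and after thinning (0.573), and Chac1 with the length trend removed (0.606). The 30000-fiber libraries had the lowest depth.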
